A study of Mus musculus with 13 samples.

Results

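The 41 genes described here encode parts of the machinery that drives a cell through DNA replication and mitosis. They were taken as a named list of cyclins, cyclin-dependent kinases (CDKs), S phase genes and mitosis genes, and were found by symbol among the 55536 genes of the RNA-seq tables. The list holds 4 G1 cyclins and CDKs, 5 genes of entry into S phase, 10 genes of replication and nucleotide supply, 4 genes of mitotic cyclins and their kinase Cdk1, 6 genes of mitotic kinases and their checkpoint, 2 genes of the anaphase-promoting complex (APC/C) pathway, 7 spindle and cytokinesis genes and 3 genes of chromatin and proliferation markers. The cells were neutrophils isolated fresh from the bone marrow of wild-type (WT) mice. In HBSS, a balanced salt solution, they received extracellular RNase A for 10 min at 37 °C (labelled exRNaseA digested, here exRNaseA, n = 2 libraries) or a mock treatment (labelled Control RNA, here mock, n = 2 libraries). The groups are those of the titles and the treatment field; the protocol text of the mock libraries mentions RNase A as well, so the groups rest on those 2 fields. The age and number of the mice and any pooling are not given in the labels. Total RNA was poly(A)-selected, which enriches messenger RNA, and sequenced.

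A dividing cell passes G1 when D-type cyclins with Cdk4 or Cdk6, then cyclin E with Cdk2, phosphorylate the retinoblastoma protein and release E2F transcription factors, which switch on replication genes. Cyclin A and cyclin B with Cdk1 then drive mitosis, and APC/C ends it by marking cyclin B and other proteins for destruction. In bone marrow, neutrophil precursors up to the myelocyte stage divide, while the band and segmented cells that make up most of a neutrophil preparation have left the cycle. Erythroblasts and early B cells of the marrow divide as well.

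All 41 members were measured well above the limit of detection. The tables held between 20661683 and 23722494 expected counts per library, of which the members took between 127659 and 146183. The lowest count of any member in any library was 279 and the highest 34354. In TPM, a level scaled to the library's total and corrected for transcript length, 8 members averaged 100 TPM or more over the 4 libraries, 31 stood between 10 and 100 TPM and 2, Ccnd2 and E2f1, stood lower. The median member lay at the 89.9th percentile of the 24616 genes detected. All 41 passed the filter on low counts, and since each had counts of at least 279 in both groups, none passed through a single group. The series calls the libraries biological replicates, but nothing used here places them in separate animals. The p-values then cover only sample-to-sample spread, which may be technical.

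**Figure D1:**
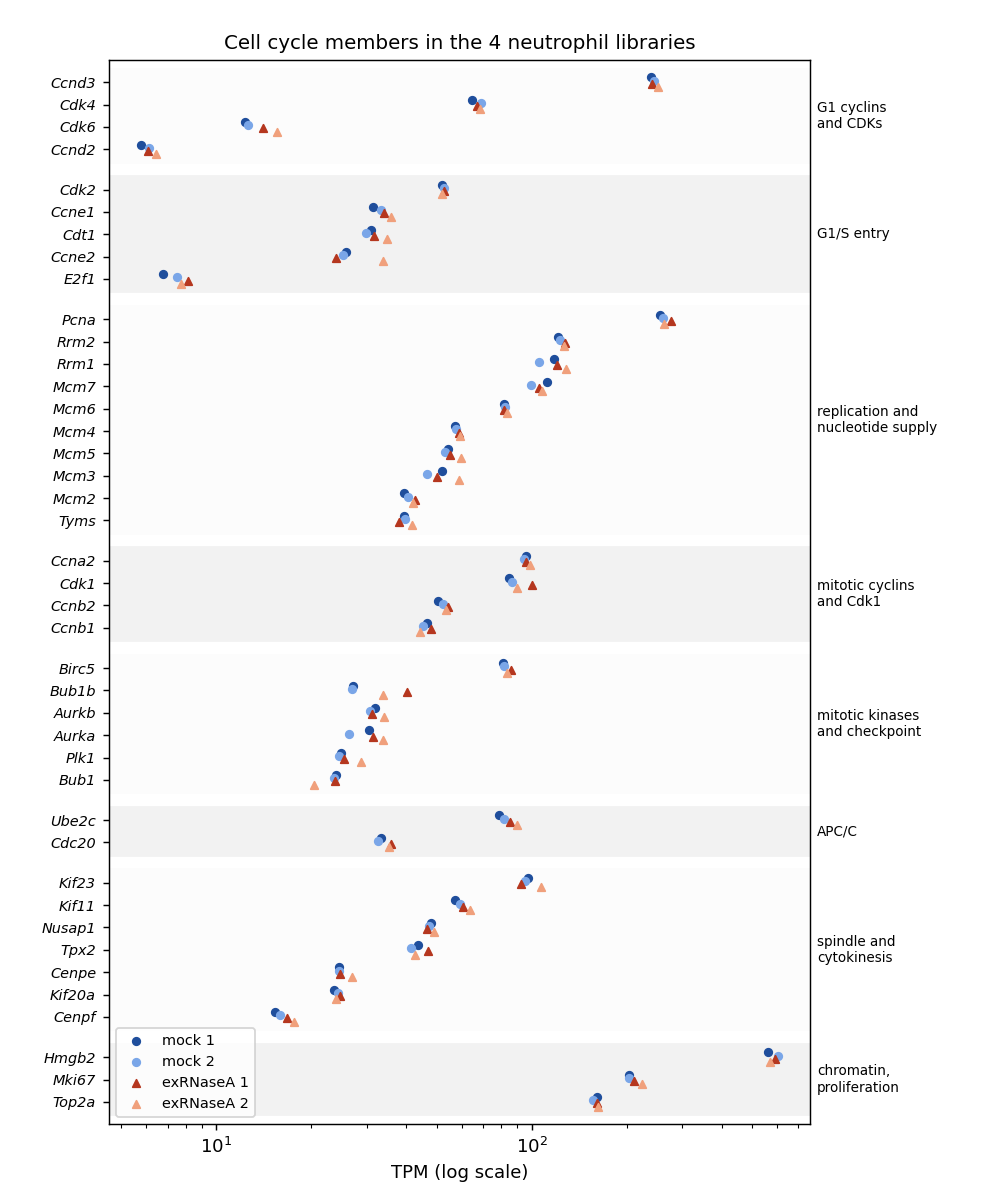
TPM (log scale) of each of the 41 members in the 2 mock libraries (circles) and the 2 exRNaseA libraries (triangles), grouped by role and ordered by mean level within a role. The levels run from about 6.10 TPM for Ccnd2 to 582 TPM for Hmgb2, and for most members the 4 libraries lie within a narrow band.

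The summed level of the 41 members was 3240 and 3266 TPM in the mock libraries and 3366 and 3409 TPM in the exRNaseA libraries, so both exRNaseA libraries stood above both mock libraries. The sum made up 0.325% ± 0.002 of all TPM in mock and 0.339% ± 0.003 in exRNaseA libraries (mean ± SD, n = 2 per group). The log2 ratio of the group means was 0.06. Taken gene by gene, the median log2 ratio of mean TPM was 0.0717 for the members. It was 0.0331 over the tested genes that averaged at least 1 TPM, so part of the rise was shared by genes at large on this scale. In CPM, counts scaled for library size and composition (TMM) but not for length, the sums were 6210 and 6181 in mock and 6271 and 6322 in exRNaseA libraries, a log2 ratio of 0.02. The second exRNaseA library had a lower sum of the 12 genes listed as mature neutrophil markers, with 267060 TPM against 278950 to 280230 in the other 3 libraries. S100a8 and S100a9 dominated this sum. They stood at 92940 and 117290 TPM there, against 97106 to 99579 and 124260 to 125570 TPM in the others. Camp, Ltf and Retnlg were also lowest there, but Mmp9 and Csf3r were highest there, at 1726 and 760 TPM. The rest of the list lay between, so the lower sum was not shared by all its genes. The list includes the granule genes Camp, Ltf, Ngp and Mmp8, and whether it separates mature cells from precursors was not tested. Of these 12 genes 9 had both exRNaseA libraries below both mock libraries in CPM (18% of all genes tested), and 10 had an unadjusted p under 0.05 in edgeR (6.35% of all genes tested), with an adjusted p of 0.288 at the lowest. Their part in the members' sum was not tested beyond a rescaling. With TPM rescaled without those 12 genes, a choice made after seeing that difference, the member sums were 4493 and 4536 in mock and 4676 and 4651 in exRNaseA libraries.

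The label of proliferating precursors was set beside markers of the labelled cell and of other marrow cells. The 12 mature neutrophil markers, S100a8 and S100a9 among them, summed to between 267060 and 280230 TPM, so the preparation carried the defining messages of its label at a high level. The 8 early neutrophil precursor markers summed to 700 and 698 TPM in mock and to 726 and 728 TPM in exRNaseA libraries. In CPM 1 of them lay above (17.7% of all genes tested), 1 below (18% of all genes) and 6 overlapped. The granule enzyme gene Mpo stood at 263 ± 9.07 TPM in mock libraries (mean ± SD, n = 2). Messages of other lineages that have dividing stages were present too, but whether those stages themselves were present was not tested. The 12 erythroid markers summed to between 5302 and 5567 TPM, with the exRNaseA libraries above the mock libraries. Most of that sum came from globin genes, with Hbb-bs at 1692, Hba-a2 at 1512, Hba-a1 at 751 and Hbb-bt at 455 TPM in mock. Klf1 and Epor stood at 28.5 and 8.19 TPM there. In CPM 6 of the 12 erythroid genes lay above (17.7% of all genes tested) and 1, Klf1, below (18% of all genes). The 13 B lineage markers summed to between 1913 and 1929 TPM, of which Ighm alone gave 1413 TPM in mock. The recombinase gene Rag1 stood at 41.9 and Vpreb3 at 39.0 TPM in mock. Rag2, Dntt, Vpreb1 and Igll1 were low there, at 3.14, 2.37, 1.995 and 1.915 TPM. Monocyte and macrophage markers (8 genes) summed to between 1036 and 1057 TPM, eosinophil, basophil and mast cell markers (8 genes) to between 439 and 469, T and NK markers (10 genes) to between 81.4 and 82.3 and megakaryocyte markers (6 genes) to between 20.4 and 25.97 TPM. Stem and progenitor markers (8 genes) summed to 32.4 and 28.6 TPM in mock and to 35.6 and 35.2 TPM in exRNaseA libraries. In CPM 1 of the 7 tested lay above (17.7% of all genes tested) and 0 below (18% of all genes). No marker was at 0 in all libraries, and 0 of the 84 tested markers passed the edgeR test used for the members. The cell type that carried the cell cycle messages therefore cannot be told apart in these bulk libraries, nor can a few cells rich in such RNA from many cells with little. The part of these other cells in the comparison of the groups was not tested.

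**Figure D2:**
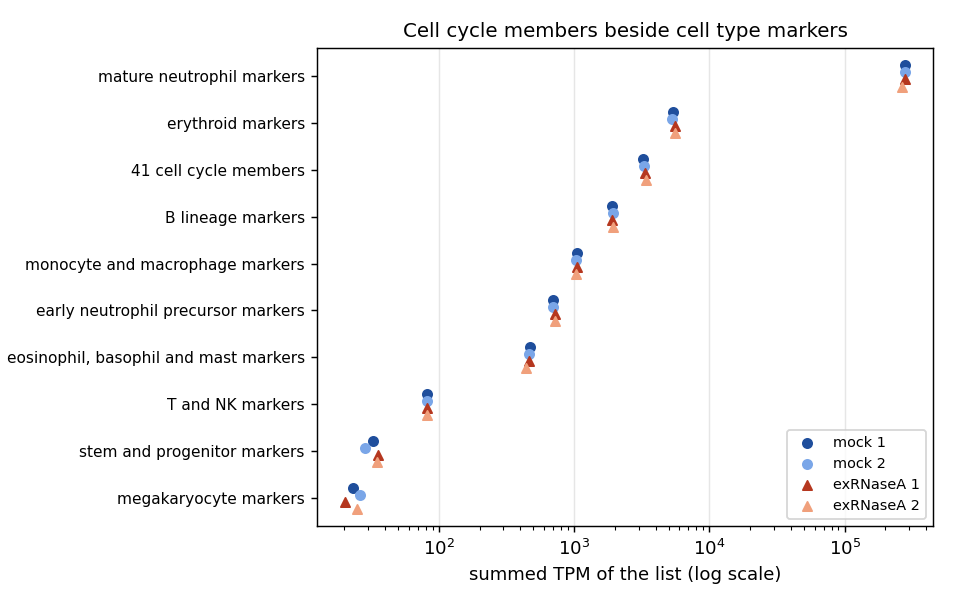
Summed TPM (log scale) of the 41 cell cycle members and of 9 lists of cell type markers in the 4 libraries, with mock libraries as circles and exRNaseA libraries as triangles. The members, at 3240 to 3409 TPM, lie between the erythroid and the B lineage markers, and the symbols of a list lie close together on this scale, widest for stem and progenitor and for megakaryocyte markers.

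The comparison of the groups asked whether RNase A outside the cells changed these messages inside them. Of the 41 members 1 passed the test, Cdk6, which rose. The test was edgeR's quasi-likelihood F test over 14184 genes with Benjamini-Hochberg adjustment at 0.05, and 0.0917% of all genes tested were called, 13 genes in all (0.0212% higher, 0.0705% lower). At an adjusted threshold of 0.1 Cdk6 was still the 1 member called (0.106% of all genes). DESeq2 called 0 members (0.0366% of all genes), and limma on log2(TPM + 1) called 0 (0.0541% of all genes). At an unadjusted p under 0.05 DESeq2 listed 2 members and limma 3. The share of all genes at that p was not computed for these tools, so the counts have no background. The median log2 change of the members was 0.03, against -0.0003 over all genes tested, and 30 of the 41 changes were positive against 49.9% of all genes. In CPM, 14 members had both exRNaseA libraries above both mock libraries (17.7% of all genes tested) and 6 had both below (18% of all genes), while 21 overlapped. In TPM, 23 members lay above (24.8% of all genes), 0 below (11.3% of all genes) and 18 overlapped. At an unadjusted p under 0.05 edgeR listed 4 members, Cdk6, Mki67, Kif11 and Aurka, against 6.35% of all genes.

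The 2 libraries per group bounded the members' differences closely. For all 41 members the 95% interval stayed inside ±0.5 on the log2 scale, against 67.1% of all genes tested and 99.5% of the 7828 that averaged at least 10 CPM. The log2 changes in counts, by edgeR on all 4 libraries, ran from -0.10 for Cdk4 to 0.21 for Cdk6. The median absolute log2 change of the members was 0.036, and the median absolute difference between replicates was 0.036 between the mock and 0.051 between the exRNaseA libraries. The number of positive changes was 30 of 41 under upper quartile scaling too, and 32 of 41 under total count scaling, where 57.9% of all genes were positive. With limma on log2(TPM + 1), which differs in tool, length correction and filter as well, it was 38 of 41, against 62.5% of all genes.

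**Figure D3:**
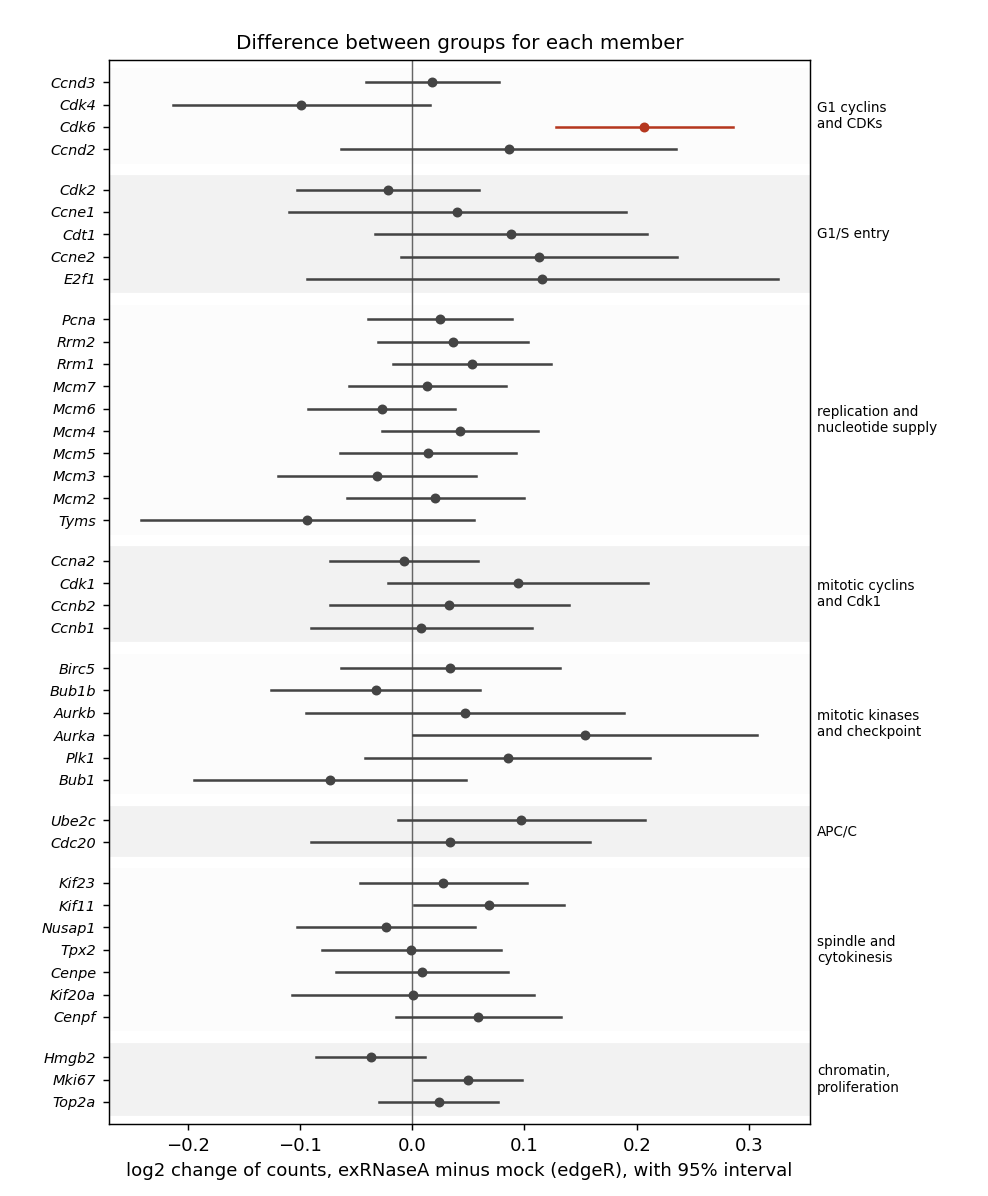
Log2 change of counts between exRNaseA and mock libraries for each of the 41 members, with the 95% interval from edgeR's quasi-likelihood fit. Cdk6, in red, is the member that passed the test, and the intervals of the others, drawn in dark grey, hold 0 or end close to it.

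Among the G1 kinases and their cyclins Cdk6 passed the test and the other 3 genes did not. Cdk6 (ENSMUSG00000040274.11, chromosome 5, 3341004 to 3531008, GRCm38.p6), a kinase that with D-type cyclins opens the way from G1 to S phase and that is prominent in blood cells, stood at 12.3 and 12.6 TPM in the mock libraries and at 14.1 and 15.5 TPM in the exRNaseA libraries. Its counts were 2066 and 1834 in mock and 2073 and 2387 in exRNaseA libraries, which scale to 87.8 and 88.8 CPM and to 99.9 and 103.8 CPM. Both exRNaseA libraries were above both mock libraries on either scale. The log2 change was 0.21 (SE 0.04, 95% interval 0.13 to 0.29; edgeR adjusted p = 0.0343). The counts of Cdk6 were whole numbers in all 4 libraries, so the counting split no reads between it and other genes; this held for 28 of 41 members and 69.2% of all genes tested. DESeq2 gave the same size, 0.21, with an adjusted p = 0.247, and limma on log2(TPM + 1) gave 0.23 with an adjusted p = 0.792. The call was also lost without the first mock library (edgeR adjusted p = 0.197), without the second mock library (0.590) and without the second exRNaseA library (0.235), while it was made without the first exRNaseA library (0.00964). The log2 change was between 0.18 and 0.24 in all 13 alternatives.

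**Figure D4:**
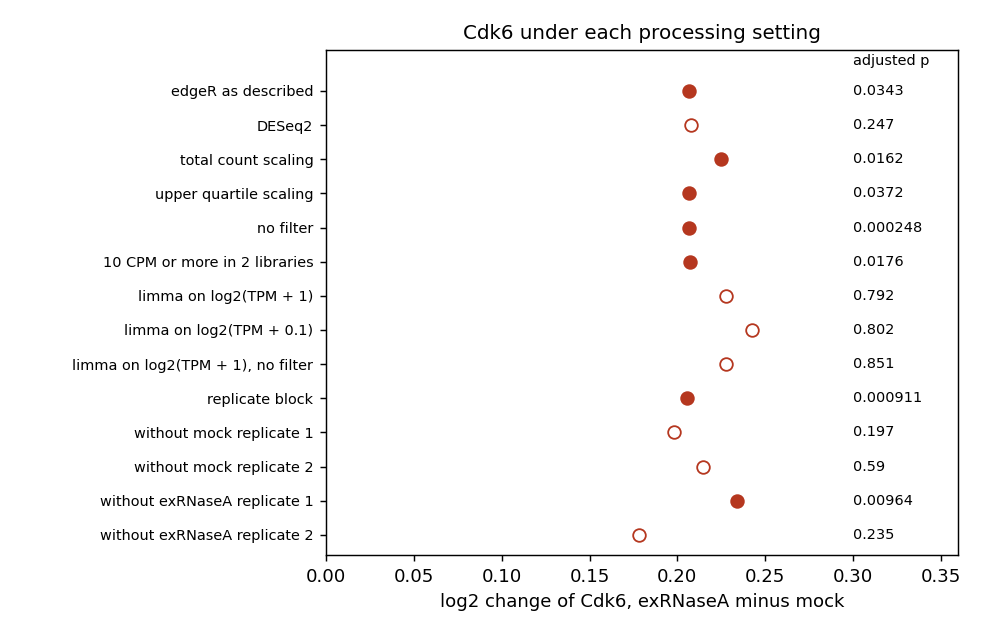
Log2 change of Cdk6 between exRNaseA and mock libraries under the edgeR fit described in the text and under 13 other settings, with each adjusted p at the right. Filled points passed the threshold of 0.05 and open points did not, while the size stayed between 0.18 and 0.24.

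Cdk4, the other kinase that acts with D-type cyclins, stood at 64.7 and 69.3 TPM in mock and 67.2 and 68.4 TPM in exRNaseA libraries. These values overlap. In CPM both of its exRNaseA libraries lay below both mock libraries. Per length it was 5.36 ± 0.17 times as abundant as Cdk6 in mock and 4.59 ± 0.26 times in exRNaseA libraries (n = 2 per group). The 2 groups did not overlap in this ratio, but it has Cdk6 as its denominator and is no result apart from the Cdk6 difference. The counts of Cdk4 had a log2 change of -0.10 (SE 0.05, edgeR adjusted p = 0.807), against a log2 ratio of 0.02 in mean TPM. They were not whole in any library, so reads of Cdk4 were split with other genes. Ccnd3, the cyclin D3 gene, was the highest G1 gene, with 238 and 245 TPM in mock and 241 and 251 TPM in exRNaseA libraries. Its groups overlapped and its log2 change was 0.02 (edgeR adjusted p = 0.953). Ccnd2, which encodes cyclin D2, stood at 5.75 and 6.13 TPM in mock and 6.08 and 6.45 TPM in exRNaseA libraries, overlapping in TPM but with both exRNaseA libraries above in CPM (log2 change 0.09, 95% interval -0.06 to 0.24; edgeR adjusted p = 0.907). Ccnd3 thus exceeded Ccnd2 by 40.7 ± 1.09-fold in mock and 39.2 ± 0.48-fold in exRNaseA libraries, per length.

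Among genes of entry into S phase none passed the test. Cdk2, the partner of cyclin E, had 52.1 and 52.6 TPM in mock and 52.6 and 52.01 TPM in exRNaseA libraries. The groups overlap in TPM and the log2 change in counts was -0.02. Ccne1, which encodes cyclin E1, had 31.5 and 33.4 TPM in mock and 34.0 and 35.7 TPM in exRNaseA libraries. Cdt1, which loads the MCM helicase onto origins, had 30.9 and 29.8 TPM in mock and 31.7 and 34.7 TPM in exRNaseA libraries. For Ccne1 and Cdt1 both exRNaseA values were above both mock values in TPM, with log2 changes in counts of 0.04 and 0.09 (edgeR adjusted p = 0.958 and 0.867). Ccne2, the cyclin E2 gene, had 25.9 and 25.2 TPM in mock and 23.9 and 33.7 TPM in exRNaseA libraries, so its second exRNaseA library stood apart from the other 3 in TPM. Its effective length there, the length by which RSEM divides its counts, was 1888 bases, against 2136 to 2397 in the others, and its CPM was 43.8 against 38.2 to 40.2. Its log2 change in counts was 0.11 (95% interval -0.01 to 0.24; edgeR adjusted p = 0.795), and its counts were whole in no library. E2f1, the E2F factor of the list, was low, between 6.79 and 8.11 TPM in the 4 libraries (log2 change 0.12, 95% interval -0.09 to 0.33; edgeR adjusted p = 0.908).

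The replication genes were the most abundant class after the chromatin genes. Their mean over 10 genes was 91.8 ± 1.49 TPM in mock and 96.3 ± 1.16 TPM in exRNaseA libraries, against 48.2 ± 0.10 and 51.2 ± 0.19 TPM over the 19 genes of mitotic cyclins, kinases, APC/C and spindle (n = 2 per group). The ratio of the 2 means was between 1.87 and 1.92 in the 4 libraries and overlapped between the groups. Pcna, the sliding clamp of the replication fork, had 254 and 260 TPM in mock and 276 and 263 TPM in exRNaseA libraries. All its exRNaseA values in TPM were above its mock values, but in CPM the groups overlapped (log2 change 0.02, edgeR adjusted p = 0.944). Rrm2, the cycle-regulated subunit of ribonucleotide reductase, which makes deoxynucleotides, had 121 and 123 TPM in mock and 127 and 127 TPM in exRNaseA libraries. Rrm1, the large subunit, had 117 and 105 TPM in mock and 120 and 128 TPM in exRNaseA libraries (log2 change in counts 0.05, edgeR adjusted p = 0.858). The Rrm1 to Rrm2 ratio was between 0.857 and 1.011 over the 4 libraries.

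The MCM helicase unwinds DNA as a ring of the 6 proteins Mcm2 to Mcm7 in equal number, but their messages were not equal. Mean levels were 41.1 TPM for Mcm2, 51.9 for Mcm3, 55.4 for Mcm5, 58.1 for Mcm4, 82.2 for Mcm6 and 106 for Mcm7. The highest was between 2.46 and 2.84 times the lowest in each library. Mcm3, Mcm4 and Mcm5 are neighbours in this order that overlap in their values (46.7 to 58.7, 57.1 to 59.4 and 53.1 to 59.5 TPM), while Mcm2 (39.5 to 42.7), Mcm6 (81.5 to 83.5) and Mcm7 (99.5 to 112) do not overlap with any other subunit. The 6 log2 changes in counts lay between -0.03 and 0.04, and 0 passed the test (lowest edgeR adjusted p = 0.905). The counts of Mcm7 were not whole in any library, so its level is uncertain. Tyms, which makes thymidylate, had between 38.0 and 41.7 TPM and a log2 change of -0.09 (edgeR adjusted p = 0.898).

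Promoter sequence was set beside these levels, since replication and mitosis genes are known to be switched on through different elements. E2F factors bind TTTCCCGC, TTTCGCGC, TTTGCCGC or TTTGGCGC, the CHR element recruits the MuvB complexes that time mitotic genes and reads TTTGAA or TTCGAA, and NF-Y binds CCAAT. RefSeq promoters (GRCm38.p6) were found for 34 of the 41 members, in 36 windows, and the 250 bases before each start were searched on both strands, with overlapping matches counted singly. Of 14 windows of the S phase entry and replication genes 28.6% held an E2F match, against 1.86% of all 32841 RefSeq windows of the same length, 14.3% held a CHR match (17.1% of all) and 71.4% a CCAAT match (33.9% of all). Of 18 windows of the mitosis and chromatin genes 5.56% held an E2F match, 50% a CHR match and 88.9% a CCAAT match. CHR and CCAAT stood together in 50% of these 18 windows and in 6.02% of all. The 4 windows of Cdk4, Cdk6 and Ccnd3 held no E2F or CHR match. A match is a description of the letters and not a measured binding site.

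The 200 bases before the start are shown for Cdk6, the member that passed the test, for Mcm6, a replication gene, and for Cdk1 and Ccnb2, mitosis genes, 5′ to 3′ along the gene. Capitals mark the E2F, CHR and CCAAT matches of either strand, and a CCAAT match of the other strand reads ATTGG. The Cdk6 start lies inside the RefSeq gene span given earlier. Mcm6 and Cdk1 are not typical of their sets. Mcm6 held the most E2F matches of any member, and Cdk1 was the 1 of the 18 mitosis and chromatin windows with an E2F match. The windows are chr5:3343693-3343892 (plus strand) for Cdk6, chr1:128359706-128359905 (minus) for Mcm6, chr10:69352913-69353112 (minus) for Cdk1 and chr9:70421555-70421754 (minus) for Ccnb2, in GRCm38.p6.
Cdk6: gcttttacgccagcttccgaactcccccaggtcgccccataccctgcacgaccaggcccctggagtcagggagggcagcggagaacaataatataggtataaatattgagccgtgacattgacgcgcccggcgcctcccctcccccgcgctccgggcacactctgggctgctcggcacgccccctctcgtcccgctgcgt
Mcm6: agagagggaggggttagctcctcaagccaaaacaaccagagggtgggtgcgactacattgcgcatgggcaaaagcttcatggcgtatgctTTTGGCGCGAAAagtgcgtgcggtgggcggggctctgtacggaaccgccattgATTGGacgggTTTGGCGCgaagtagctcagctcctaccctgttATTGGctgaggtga
Cdk1: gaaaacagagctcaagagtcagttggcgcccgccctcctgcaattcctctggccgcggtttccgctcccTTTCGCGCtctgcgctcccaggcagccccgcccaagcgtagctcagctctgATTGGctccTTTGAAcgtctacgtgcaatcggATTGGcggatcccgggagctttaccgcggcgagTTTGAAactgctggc
Ccnb2: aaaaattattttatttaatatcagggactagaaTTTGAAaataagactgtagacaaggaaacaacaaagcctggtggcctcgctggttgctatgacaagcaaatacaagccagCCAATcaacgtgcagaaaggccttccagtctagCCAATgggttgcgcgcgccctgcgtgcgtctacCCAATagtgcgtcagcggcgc
The Cdk6 stretch has no capitals, Mcm6 carries 3 E2F matches, of which 2 overlap, and 2 of CCAAT, Cdk1 carries matches of all 3 kinds, and Ccnb2 carries 3 CCAAT matches and 1 CHR match without an E2F match.

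Of the mitotic cyclins and Cdk1 none passed the test, and all 4 genes overlapped between the groups in CPM. Cdk1, the kinase that starts mitosis, had 84.6 and 86.9 TPM in mock and 101 and 89.9 TPM in exRNaseA libraries, apart in TPM only (log2 change in counts 0.09, 95% interval -0.02 to 0.21; edgeR adjusted p = 0.829). Ccna2, the cyclin A2 gene that acts from S phase into mitosis, had 95.6 and 94.3 TPM in mock and 95.6 and 98.7 TPM in exRNaseA libraries. Ccnb1, which encodes the main mitotic cyclin, had 46.7 and 45.3 TPM in mock and 48.0 and 44.4 TPM in exRNaseA libraries. Its groups overlap, and its log2 change was 0.01. Ccnb2, the second cyclin B, had 50.5 and 52.3 TPM in mock and 54.4 and 53.3 TPM in exRNaseA libraries, between 1.08 and 1.202 times the level of Ccnb1 in each library.

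Mitotic kinases and checkpoint genes averaged between 22.9 and 32.0 TPM, apart from Birc5. Birc5, the survivin subunit of the chromosomal passenger complex, had 80.8 and 81.7 TPM in mock and 86.0 and 83.5 TPM in exRNaseA libraries. Aurkb, the kinase of that complex, had 31.9 and 30.7 TPM in mock and 31.2 and 34.0 TPM in exRNaseA libraries. Aurka, which acts at spindle poles, had 30.4 and 26.3 TPM in mock and 31.4 and 33.7 TPM in exRNaseA libraries, and 807 and 611 counts against 701 and 860. Its log2 change of 0.15 (SE 0.07, 95% interval 0.0007 to 0.31) did not pass (edgeR adjusted p = 0.780), and its groups were apart in TPM but overlapped in CPM. It was 0.27 without the first and 0.06 without the second mock library, and 0.22 without the first and 0.08 without the second exRNaseA library, with no call in any of the 4. Plk1, a kinase needed throughout mitosis, stood between 24.5 and 28.7 TPM and Bub1, a checkpoint kinase, between 20.4 and 23.9 TPM, with log2 changes of 0.09 and -0.07 (edgeR adjusted p = 0.880 and 0.905).

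Bub1b, the gene of the spindle checkpoint protein BubR1, differed between the scales. It had 27.05 and 26.97 TPM in mock and 40.3 and 33.7 TPM in exRNaseA libraries, a log2 ratio of 0.45 with no overlap. Its counts, 1491 and 1276 in mock and 1281 and 1397 in exRNaseA libraries, gave a log2 change of -0.03 (95% interval -0.13 to 0.06; edgeR adjusted p = 0.946). The effective length that RSEM, the authors' counting tool, assigned to Bub1b, an average over its 4 transcripts weighted by their estimated use, was 3286 and 3230 bases in mock and 2184 and 2622 bases in exRNaseA libraries. The TPM difference thus moved with the estimated mix of transcripts. Bub1b was singled out after its values were seen. It was the 1 member of the 40 with more than 1 transcript whose effective length differed by 1.2-fold or more between groups that did not overlap, and 4.84% of 11408 genes tested with more than 1 transcript did the same (1.36% of the 7221 that averaged at least 10 CPM). Limma on log2(TPM + 1) gave it a log2 change of 0.43 with an adjusted p = 0.717. Mcm3 also differed between scales, with a log2 ratio of 0.14 in TPM and a log2 change of -0.03 in counts. Its effective length was 2136 bases in the second exRNaseA library and between 2519 and 2641 in the others.

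**Figure D5:**
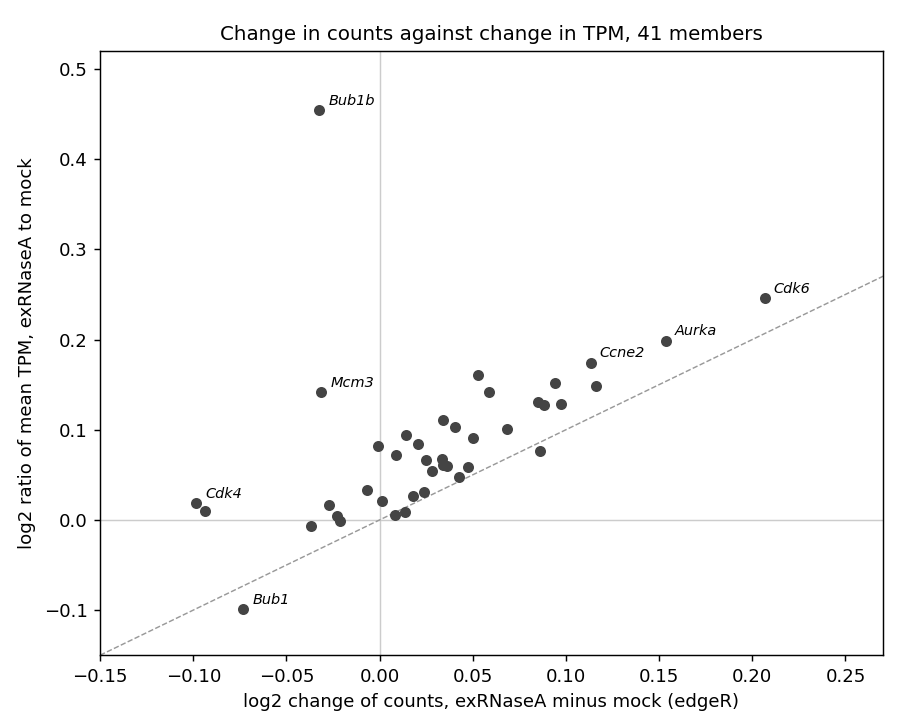
For each of the 41 members, the log2 change of counts from edgeR (horizontal) against the log2 ratio of mean TPM (vertical), exRNaseA to mock, with equality as the dashed line. Most members lie a little above the line, Bub1b stands at 0.45 in TPM and -0.03 in counts, and Cdk6 is high on both axes.

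Genes that end mitosis or move chromosomes did not pass the test. Ube2c, the APC/C ubiquitin-conjugating enzyme, had 78.6 and 81.6 TPM in mock and 85.5 and 89.6 TPM in exRNaseA libraries, which do not overlap (log2 change in counts 0.10, 95% interval -0.01 to 0.21; edgeR adjusted p = 0.802). Cdc20, the APC/C activator, had 33.3 and 32.5 TPM in mock and 35.8 and 35.2 TPM in exRNaseA libraries, apart in TPM but overlapping in CPM. Kif23, a kinesin of the central spindle, had 96.96 and 95.01 TPM in mock and 92.5 and 107 TPM in exRNaseA libraries, so the exRNaseA values enclosed the mock values. Kif11, the kinesin that separates spindle poles, had 56.9 and 59.4 TPM in mock and 60.8 and 63.9 TPM in exRNaseA libraries (log2 change 0.07, SE 0.03, edgeR adjusted p = 0.762). Nusap1, which bundles spindle microtubules, had 47.8 and 47.4 TPM in mock and 46.4 and 49.0 TPM in exRNaseA libraries. The other 4 spindle genes, Tpx2, Cenpe, Kif20a and Cenpf, had mean levels of 43.6, 25.2, 24.1 and 16.4 TPM and log2 changes between -0.0006 and 0.06.

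The chromatin and proliferation markers were among the most abundant members. Hmgb2, a chromatin protein high in dividing blood precursors, had 562 and 605 TPM in mock and 590 and 571 TPM in exRNaseA libraries. It made up between 16.7% and 18.5% of the summed member TPM, and its groups overlapped in TPM. In CPM both exRNaseA libraries, at 891 and 866, lay below both mock libraries, at 896 and 906 (log2 change -0.04, 95% interval -0.09 to 0.01; edgeR adjusted p = 0.857). Its counts were not whole in any library. Mki67, the gene of the Ki-67 proliferation antigen, had 204 and 203 TPM in mock and 210 and 223 TPM in exRNaseA libraries, and 33351 and 29060 counts against 29679 and 34354. Its groups did not overlap, with a log2 change of 0.05 (SE 0.02, 95% interval 0.0017 to 0.10; edgeR adjusted p = 0.759). Without the first exRNaseA library its log2 change was 0.08 and it was called (edgeR adjusted p = 0.04998). Without the second exRNaseA library it was 0.02 (0.949), and without the first or the second mock library it was 0.05 and 0.04 and not called (0.954 and 0.943). Top2a, the topoisomerase that untangles sister chromosomes, had 161 and 156 TPM in mock and 162 and 163 TPM in exRNaseA libraries (log2 change 0.02, edgeR adjusted p = 0.926).

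Other genes of the same pathways gave 0 calls among 145 tested of 148 listed (0.0917% of all genes tested), with a median log2 change of 0.02 and 9 genes at an unadjusted p under 0.05 in edgeR (6.35% of all genes tested). DESeq2 and limma on log2(TPM + 1) called 0 of them too, with 3 and 6 at an unadjusted p under 0.05, again without a share over all genes. Of 45 further replication genes 28 changes were positive (median 0.03), against 49.9% of all genes tested. Slbp, which binds histone messages, averaged 145 TPM, the clamp loader gene Rfc2 88.6 TPM and the ligase gene Lig1 68.5 TPM, and Clspn, of the replication checkpoint, had the smallest p of this list (log2 change 0.09, edgeR adjusted p = 0.807). Of 58 further mitosis genes 36 changes were positive (median 0.02), against the same 49.9%. Cks2, a CDK-binding protein gene, averaged 231 TPM, the tubulin gene Tubb5 200 TPM and the condensin gene Smc4 195 TPM. Knl1, a kinetochore scaffold gene, had the smallest p there, with 19.9 and 20.1 TPM in mock and 23.3 and 24.3 TPM in exRNaseA libraries, which do not overlap (log2 change in counts 0.12, edgeR adjusted p = 0.548). Of 30 further regulators 21 changes were positive (median 0.04), again against 49.9%. Tfdp1, the dimer partner of E2F factors, averaged 149 TPM, the transcription kinase gene Cdk9 119 TPM and Ccng2, an atypical cyclin gene of resting cells, 114 TPM. E2f8, an E2F repressor gene, had the smallest p (log2 change 0.12, edgeR adjusted p = 0.512).

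Of the 12 tested CDK inhibitors and antiproliferative genes 2 changes were positive (49.9% of all genes tested) and 10 negative. The median log2 change of this list was -0.03, with 0 calls (0.0917% of all genes). In CPM 0 lay above (17.7% of all genes), 5 below (18% of all genes) and 7 overlapped. Under total count scaling the median log2 change was 0.0178 for all genes and 0.0461 for the members. Under TMM scaling these were -0.0003 and 0.0279. The part of scaling in the sign of the inhibitor list was not tested. The 3 most abundant stood above every cyclin among the members. Btg1, an antiproliferative gene, averaged 836 TPM, Mxd1, a repressor that opposes Myc and marks late myeloid cells, 673 TPM and Btg2, a relative of Btg1, 413 TPM. Their log2 changes were -0.03, 0.01 and -0.05 (edgeR adjusted p = 0.841, 0.952 and 0.780). Tob1, of the same family, had the smallest p, with 96.3 and 95.4 TPM in mock and 92.97 and 93.99 TPM in exRNaseA libraries (log2 change -0.07, edgeR adjusted p = 0.759). Cdkn1c, Cdkn2a and Cdkn2b had at most 10 counts in any library and were not tested.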

How the data were processed

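The members and lists were chosen with earlier results of these data known. Per the submitters' processing notes, reads were handled with STAR 2.4.2a and RSEM 1.3.3 and the build was mm10. The authors deposited 1 table per library with expected counts, TPM, FPKM and effective lengths per gene, columns of RSEM per the file headers. For the annotation release and strand setting nothing was found in these sources. Small RNA data were not used here. Symbols matched 55450 of 55536 gene IDs; positions are RefSeq's (GRCm38.p6, which is mm10).

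Expected counts, which RSEM splits between genes that share sequence, were rounded (28 of 41 members were whole in all 4 libraries, within 0.005). edgeR 4.0.16 (filterByExpr, TMM factors 0.993 to 1.007, biological coefficient of variation 0.0244) compared the groups without covariates. Standard errors and 95% intervals came from the F value, or, for 2 members with F at or under 0.01, the SE from limma-voom. DESeq2 1.42.0, limma 3.58.1 (trend, genes at 1 TPM in 2 libraries), other scalings and filters, a replicate block, each library left out and a threshold of 0.1 were alternatives.

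All 41 members were named. Full values were given for called members, the 3 most abundant of each role (all of 4 or fewer) and the one with the smallest p; other lists name their 3 most abundant genes, the smallest p and any call. The tests and intervals were tested on simulated data.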

Additional observations from a re-analysis of the deposited data

How the results depend on the processing

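The member call, Cdk6 alone, was made in the same direction under total count and upper quartile scaling, without a filter, at 10 CPM or more in 2 libraries, with the replicate block and at a threshold of 0.1. It fell to 0 members with DESeq2, limma on log2(TPM + 1), limma on log2(TPM + 0.1) and limma without a filter. Leaving out 1 library gave between 0 and 2 member calls, between 0 and 1 call among the other cell cycle genes (Aspm, without the first exRNaseA library) and between 9 and 74 calls over all genes. Over all genes the 13 calls became 149 without a filter, 7 at 10 CPM or more, 7 and 8 with limma on log2(TPM + 1) and log2(TPM + 0.1), 0 with limma without a filter and 55 with the replicate block. The median log2 change of the members was between 0.02 and 0.05 in the edgeR and DESeq2 alternatives, 0.0661 with limma on log2(TPM + 1), with or without the filter, and 0.0702 on log2(TPM + 0.1), where all genes moved by 0.0298, 0.0143 and 0.0325 in median (log2(TPM + 1) with and without the filter, then log2(TPM + 0.1)). The log2 ratio of the summed level, 0.06 in TPM, was 0.0425 in FPKM, 0.0233 in CPM, 0.0721 without Hmgb2 and 0.0468 without the mature neutrophil markers, an alternative chosen after seeing the data. Of 533 member values under alternatives 47, of 16 members that were not called, changed sign, and 0 called values did. The cause of these shifts was not tested. Replicate numbers were shared by the groups, but deviations of same-numbered libraries had a correlation of 0.044 over 7828 genes and 2 pairs are too few to show pairing. Under the replicate block 1 member was called, Cdk6 (log2 change 0.21, edgeR adjusted p = 0.000911). With a library left out, the lone library of its group was assumed to vary like the other group. The SE of the log2 change was 0.10 for E2f1, with 279 to 311 counts, and 0.02 for Mki67, with 29060 to 34354.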

Other observations

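The E2F family, chosen here after its values were seen, was spread over a wide range of levels. E2f2, an activator E2F, averaged 59.6 TPM and E2f8, a repressor, 48.9 TPM, followed by E2f4 at 35.0 TPM, which acts in resting cells. E2f6 averaged 8.91, E2f1 7.53, E2f3 6.62, E2f7 5.49 and E2f5 2.14 TPM. Their log2 changes in counts ran from 0.01 for E2f4 to 0.31 for E2f5, and 0 of the 8 passed edgeR's test (lowest adjusted p = 0.512, E2f8). Among the retinoblastoma family, which hold E2F factors in check, Rb1 averaged 65.8, Rbl2 38.6 and Rbl1 24.5 TPM, with log2 changes of -0.01, 0.06 and 0.0046.

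The D-type cyclins followed a steep order, with Ccnd1 between 0.76 and 0.83 TPM in the 4 libraries, and Ccnd2 at 6.10 and Ccnd3 at 244 TPM on average. Among the CDK inhibitors Cdkn1b (p27) averaged 172 TPM, Cdkn2d (p19) 93.6, Cdkn2c (p18) 28.2 and Cdkn1a (p21) 6.89 TPM. Their log2 changes were -0.03, -0.02, 0.01 and -0.12, and 0 of them passed edgeR's test. These genes too were chosen after their values were seen.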
